A study of Arabidopsis thaliana with 4 samples.

Results

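The transcripts described here are the 200 brightest nuclear probe sets in mock-treated *Arabidopsis thaliana* seedlings, taken from 22746 probe sets that were tested on the array. They were chosen by the highest mean expression values of the 2 mock arrays, so their level in mock is the rule itself and not a finding. Control probe sets and 77 probe sets annotated as organelle-encoded (plastid or mitochondrion) had been dropped before. Seedlings of the Col-0 wild type, raised in the light for 5 days, were kept for 2 h in a 10 µM solution of indole-3-acetic acid (IAA, a natural auxin, 2 arrays) or in plain water (mock, 2 arrays). Total RNA from the seedlings was hybridized to Affymetrix arrays, and each probe set received 1 expression value per array on a linear scale. All 4 arrays carried RNA of the same wild type and no mutant or transgene entered the comparison. In such bulk RNA, fewer cells of a type and less RNA per cell cannot be told apart.

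A light-grown seedling lives from its green cotyledons, and transcripts for the light reactions and for carbon fixation are known to dominate the messenger RNA of green tissue. Photosystems and light-harvesting complexes collect light energy in the thylakoid membrane, the Calvin cycle uses that energy to fix carbon dioxide, and photorespiration salvages the product of the oxygenase side reaction of Rubisco. Growing tissue also carries much RNA for ribosomal proteins, translation factors and secreted wall proteins. Auxin acts mainly by releasing Auxin Response Factors from their Aux/IAA repressors, which raises a limited group of early genes.

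The brightness of a probe set depends on its probes as well as on its transcript. The order of the 200 therefore ranks signals and does not give relative abundance between genes. Names could be given to 54 of the 200, 49 through the array's annotation and 5 through lists of brassinosteroid-regulated transcripts of the study, used for identity only. The other 146 are not listed by the tables used here. The named share was 27% among the 200, against 63.8% over all tested probe sets, so the classes below describe the named part only. For the unnamed probe sets it could not be checked that their transcripts are nuclear. The design marks 17 of the 200 probe sets as shared between similar sequences.

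Mock means of the 200 ran from 11300 down to 3581. The limit fell within a dense range of values. The lowest member had a mock mean of 3581.15, and the first probe set outside, AT2G46220, had 3580.65. The members ranked 198 and 199 had mock means of 3596 and 3588, and the probe sets ranked 202 and 203 outside had 3579.7 and 3576. The 200 supplied 18.1% and 17.8% of the summed nuclear signal on the IAA arrays, against 19.1% and 18.9% on the mock arrays. Both IAA shares lay below both mock shares.

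The treatment was visible in the same arrays. *GH3.3*, whose enzyme couples IAA to amino acids, had 4071 and 4053 in IAA, against 26.6 and 28.4 in mock. *IAA1* had 1524 and 1365 in IAA, against 68 and 72.5 in mock, and *IAA19* had 1491 and 1349.7, against 103 and 111. Both encode Aux/IAA repressors, and all 3 transcripts were called higher in limma. Tissue markers were named in part. Of 7 shoot markers only *RCA* could be measured by name, and of 6 root markers 5 could, none of the 5 among the 200. Markers without a named probe set could not be looked for among the unnamed ones. The summed value of the 5 root markers was 3543 and 3096 in IAA, against 3934 and 4475 in mock, and no root marker was listed at 0. Most of this sum was *PYK10*, which had 2707 and 2325 in IAA, against 2407 and 2943 in mock, with overlap (log2 change -0.09). *TIP2;3*, *CASP5* and *PRP3* were called lower (0.374% of all tested), while *PYK10* and *EXPA7* were not called. The probe sets of *TIP2;3* and *PRP3* were named only through the study's lists of auxin-regulated transcripts, which came from these same arrays. That of *CASP5* was named only through its brassinosteroid lists. The calls and the sum of these markers therefore follow in part from how probe sets were named. The part of these root markers in the results on the 200 was not tested. Of 7 stored seed transcripts 0 were named.

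The first question was whether any of the 200 changed after IAA. A change was called at a limma adjusted p below 0.10 with log odds B above 0, adjusted over all 22746 probe sets. No member was called: 0 of 200 were higher, against 1.48% of all tested probe sets, and 0 of 200 were lower, against 0.374% of all tested. Without the rule on B, limma gave 1 higher member (background 3.87%) and 3 lower members (background 2.26%). At an unadjusted limma p below 0.05 the counts were 1 higher, against a background of 10.1%, and 12 lower, against 10.6%. These 13 were all unnamed, and the brightest of them ranked 54. When the prior variance was allowed to follow intensity, limma called 1 member higher (background 1.67%) and 2 lower (background 0.396%). With 64 added to each value before log2 it called 0 higher (background 1.44%) and 3 lower (background 0.497%).

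The intervals were narrow. The 95% interval of the limma log2 change lay within -1 and 1 for all 200 members, against 96.4% of all tested probe sets, so a change of 1 log2 unit lay outside the interval of every member. It lay within -0.5 and 0.5 for 187 members (93.5%, against 66.4% of all tested). A log2 change of at least 0.5 in size was measured for 1 member (0.5%, against 6.23%), and one of at least 0.25 for 13 members (6.5%, against 25.9%). The changes of the members ranged from -0.53 to 0.47, while those of the other nuclear probe sets ranged from -1.51 to 7.21.

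**Figure D1:**
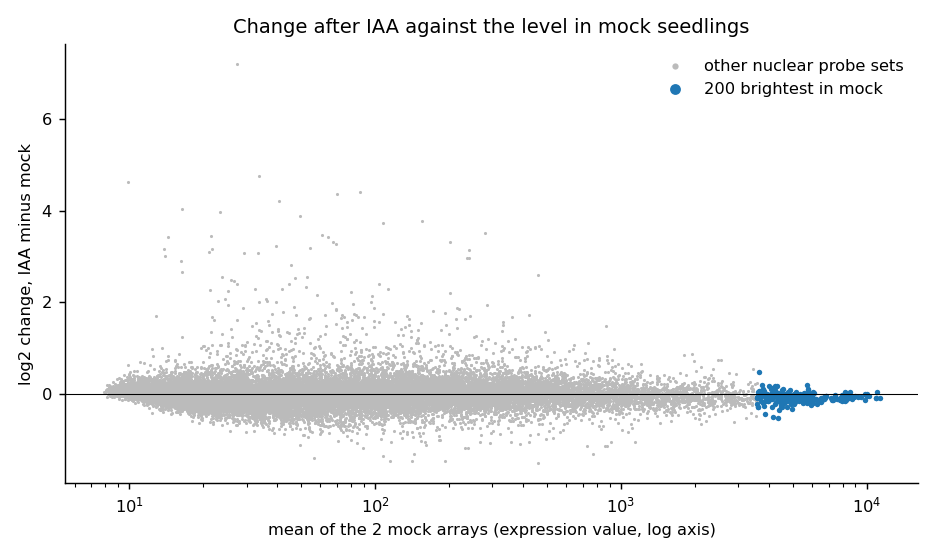
Log2 change (IAA minus mock, vertical axis) of each nuclear probe set against the mean of the 2 mock arrays (horizontal log axis). The 200 brightest probe sets (blue) lie between -0.53 and 0.47, and the other nuclear probe sets (grey) reach 7.21.

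Small as they were, the changes lay mostly on one side. The median log2 change of the 200 was -0.075, against -0.015 over all tested probe sets, and 160 of 200 (80%) lay below 0, against 53.3% of all tested. Both IAA arrays lay below both mock arrays for 105 members (52.5%, against 29% of all tested) and above both for 17 (8.5%, against 24.5%). The changes between the lower and the upper quartile ran from -0.13 to -0.02. The median corresponds to a mock value 1.05 times the IAA value. For the next 200 probe sets by rank the median was -0.063, with 66.5% below 0, so the shift did not end at rank 200.

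**Figure D2:**
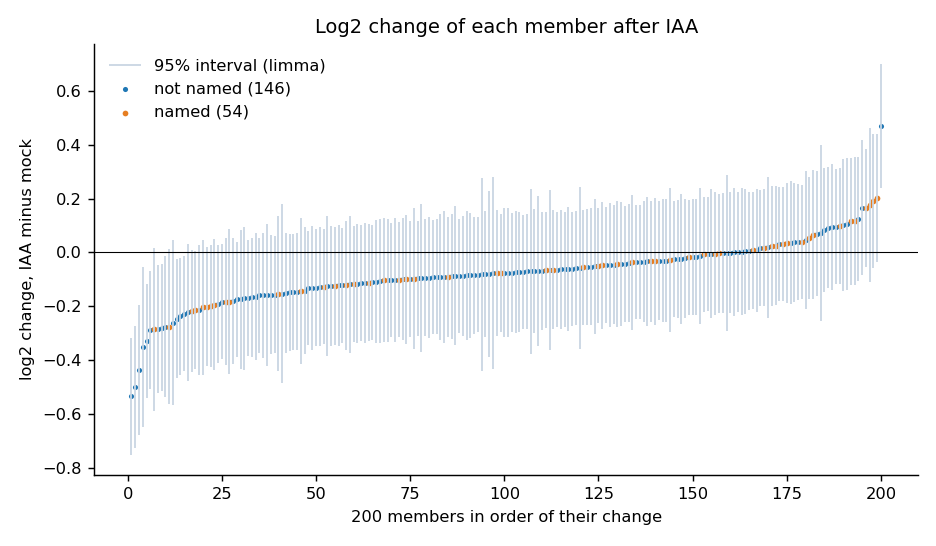
Log2 change (IAA minus mock) of each of the 200 members in ascending order, with its 95% interval from limma, for named (orange) and unnamed (blue) members. The points run from -0.53 to 0.47, 160 of them lie below 0, and every interval stays within -1 and 1.

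Several technical values moved in the same direction. The array carries probe sets for bacterial and phage transcripts that are added to every hybridization, and 7 of these 18 had means of 793 or more, a limit set after the values were seen. All 7 had both IAA arrays below both mock arrays, with a median log2 change of -0.26 and a range from -0.37 to -0.16. The brightest of them, for the phage gene cre, had 4799 and 4079 in IAA, against 5276 and 5222 in mock, which is within the range of the members. The 11 dimmer ones had a median of 0.04. The upper end of the whole distribution was also lower after IAA. The mean log2 value of the 200 highest nuclear probe sets of each array was 12.35 and 12.32 in IAA, against 12.39 and 12.39 in mock. These were mostly the members themselves, with 186 and 180 of them on IAA replicates 1 and 2 and 192 on each mock array. The upper end is therefore not a separate measure of the shift. Relative to the mock means, the median member stood at -0.055 and -0.090 on the IAA arrays. IAA replicate 2 was thus the lower array for both the members and the bright controls. The part of this difference between arrays in the shift of the members was not tested.

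**Figure D3:**
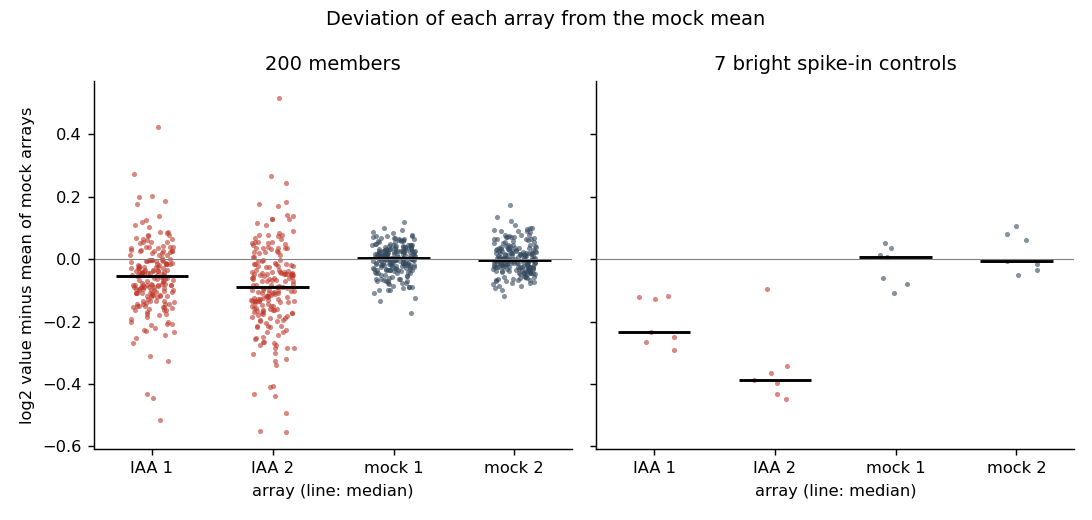
Log2 value on each array minus the mean of the 2 mock arrays for the 200 members (left) and the 7 bright hybridization controls (right). Points are probe sets and lines are medians, and the mock points mirror each other because they are measured from their own mean. The member medians are -0.055 and -0.090 on the IAA arrays, and those of the controls are -0.24 and -0.39.

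RNA quality was read from the array's probe sets for the 5′ and 3′ ends of 3 transcripts. The 5′ to 3′ ratio for actin was 0.617 and 0.587 in IAA, against 0.578 and 0.664 in mock. For GAPDH it was at least 1.261 on the IAA arrays, against at most 1.205 on the mock arrays, and for ubiquitin it was 0.821 and 0.847, against 0.838 and 0.821. The groups overlapped for actin and ubiquitin but not for GAPDH. The transcripts annotated as organelle-encoded, which the rule left out, included 12 probe sets above the same brightness limit. All 12 had changes below 0 (53.3% of all tested), with a median log2 change of -0.31.

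A second question was whether small changes at the top reflect a compressed scale. Replicates differed least among the brightest probe sets. The median absolute log2 difference between replicates was 0.065 in IAA and 0.060 in mock for the 200, 0.081 in IAA and 0.077 in mock for the next 200, and 0.096 and 0.104 for the 400 after those. The median absolute change between groups was 0.089 for the 200, 0.125 for the next 200, and between 0.121 and 0.142 in each of the lower bins. Differences between replicates and differences between treatments were therefore both smaller at the top of the range. The median absolute change of the 200 was 0.643 times that of the other nuclear probe sets. That ratio holds on the plain log2 scale alone: with 64 added to each value, which shrinks the changes of dim probe sets, it was 1.46. Saturation of probes on the array cannot be read from values summarized per probe set and was not tested. The intervals above describe signal, and a compressed signal would understate a change in RNA.

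**Figure D4:**
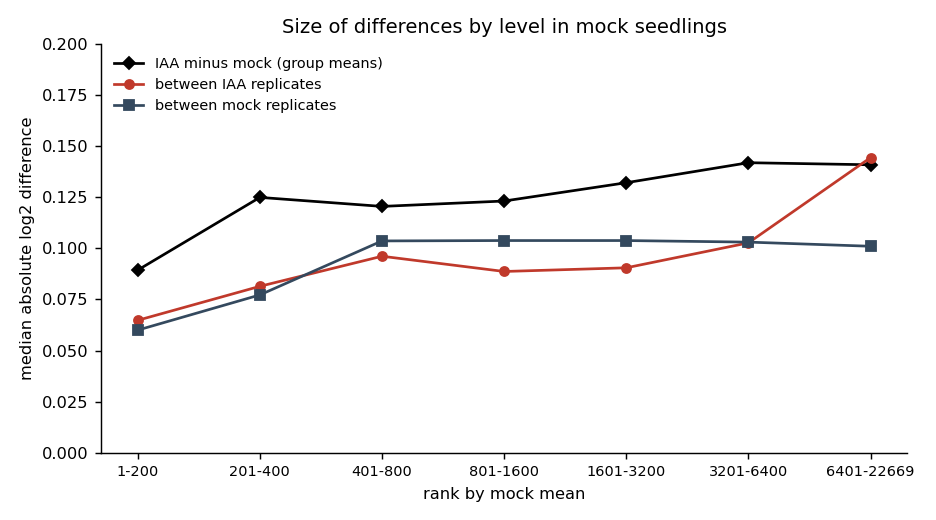
Median absolute log2 difference between the means of IAA and mock (black), between IAA replicates (red) and between mock replicates (grey-blue), in bins of nuclear probe sets by rank of the mock mean. A difference between 2 single arrays carries more error than one between 2 means of 2 arrays. All 3 quantities are lowest for ranks 1 to 200, at 0.089, 0.065 and 0.060.

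Within the 200 the median change differed little with rank, while fewer changes lay below 0 and their range widened toward the lower ranks. In the first 50 the median change was -0.085 with 45 below 0, and the changes ran only from -0.17 to 0.05. In the second, the third and the last 50 the medians were -0.064, -0.086 and -0.064, with 40, 39 and 36 of 50 below 0. The changes of the last 50 ran from -0.44 to 0.47. The largest changes in both directions lay in the lower-ranked 100. Of the 12 brightest members 11 were unnamed and 1 was *RCA*. Their values lay between 8612 and 11463.1 on the IAA arrays, against 9246 and 11429.7 on the mock arrays. Both IAA arrays lay below both mock arrays for 5 of the 12 (29% of all tested) and above both for 1 (24.5% of all tested), and the groups overlapped for 6. The changes of the 12 lay between -0.13 and 0.04, and all 12 were also the 12 brightest after IAA. One of them had the value 9993 on 3 of the 4 arrays, and such equal values on at least 2 arrays were found in 2 members (1%, against 0.888% of all tested).

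Among the named members, transcripts for the thylakoid membrane formed the largest class, with 11 genes. Classes were assigned by hand from what the encoded proteins are known to do. For each gene below, the expression value is given per replicate, and a signed value in parentheses or called a change is the log2 change, IAA minus mock. The counts per class stand beside these shares of all tested probe sets: 53.3% below 0, 29% with both IAA arrays below both mock arrays, 24.5% with both above, 1.48% called higher and 0.374% called lower. The classes are too small to be read against them. *LHCB4.1* and *LHCB4.2* encode minor antenna proteins of photosystem II. *LHCB4.1* (rank 20) had 8209 and 8355 in IAA, against 7828 and 9112 in mock. The mock replicates of *LHCB4.1* enclosed both IAA values, and the log2 change was -0.03 (95% interval -0.30 to 0.24). *LHCB4.2* had 6507 and 6002 in IAA, against 6780.5 and 6639.9 in mock, with both IAA values below both mock values (-0.10, limma adjusted p = 0.572).

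Photosystem subunits showed the same small differences. *PSAE-1*, a stromal subunit of photosystem I, had 8141 and 8087 in IAA, against 8620.4 and 8779 in mock. *PSAN*, a lumenal subunit of the same complex, had 8136 and 8612 in IAA, against 8298 and 8025 in mock. The groups did not overlap for *PSAE-1* (-0.10, 95% interval -0.31 to 0.11) and overlapped for *PSAN* (0.04). *PSBY* and *PSBW* encode small subunits of photosystem II. *PSBY* had 8547 and 8187 in IAA, against 8406 and 8048 in mock (0.02), and *PSBW* had 5323 and 5171, against 5792 and 5549 (-0.11). Only for *PSBW* did the groups stand apart. *PSB27*, an assembly factor of photosystem II, had 4582 and 4321 in IAA, against 4802 and 4668 in mock, and *ATPC1*, the gamma subunit of the plastid ATP synthase, had 6559.6 and 6621, against 6743 and 6948. Both lay lower on both IAA arrays, by 0.09 and 0.05 on the log2 scale.

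The remaining members of this class were AT4G01150, for a protein that curves thylakoid membranes (-0.12), AT2G26500, for a small subunit of the cytochrome b6f complex (0.02), and AT1G51400, for a small photosystem II protein (0.008). Over the 11 genes the changes ran from -0.12 to 0.04 with a median of -0.055, 7 lay below 0 (53.3% of all tested), 6 had both IAA arrays below both mock arrays (29% of all tested), and 0 were called in limma (1.48% higher and 0.374% lower of all tested). The class median was -0.033 without mock replicate 2 and -0.076 without mock replicate 1. By list, 5 of 32 genes for photosystems and electron transport could be measured by name, and all 5 were members. Of 21 light-harvesting genes 3 were measured, and the one outside the 200, *LHCB4.3*, ranked 3581 with a change of -0.26. None of these was called.

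Carbon fixation and photorespiration supplied 6 named members. *RCA*, which encodes the activase that keeps Rubisco in its active state, was the brightest named member at rank 10. It had 9763 and 9799 in IAA, against 9994 and 9668 in mock. The mock replicates enclosed both IAA values, and the log2 change was -0.0072 (95% interval -0.22 to 0.21). *PRK* encodes phosphoribulokinase, which regenerates the substrate of Rubisco, and *SBPASE* encodes sedoheptulose-bisphosphatase of the same cycle. *PRK* had 5204 and 4817 in IAA, against 5687 and 5804 in mock (-0.20 ± 0.09 SE, limma adjusted p = 0.291). *SBPASE* had 4207 and 3818 in IAA, against 4437 and 4804 in mock (-0.20 ± 0.10 SE, limma adjusted p = 0.316). In both the IAA values lay below the mock values and neither passed the test.

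The 3 members for photorespiration gave changes of both signs. AT1G11860, for the T protein of the glycine cleavage system, had 3727 and 3109 in IAA, against 4183 and 4055 in mock (-0.28, limma adjusted p = 0.256). *HPR*, for peroxisomal hydroxypyruvate reductase, had 5804 and 5748 in IAA, against 5802 and 5899 in mock (-0.02). AT1G80380, for glycerate kinase, had 3909 and 3934 in IAA, against 3846 and 3823 in mock (0.03). The first lay lower without overlap, the second overlapped, and the third lay slightly higher without overlap. Of 23 listed carbon fixation genes 4 were measured and 3 were members, and of 16 photorespiration genes 4 were measured and 3 were members. In limma 0 of these 8 were called.

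Other plastid proteins were encoded by 4 members. AT1G74470, for the geranylgeranyl reductase that makes the phytyl chain of chlorophyll, had 4817 and 5081 in IAA, against 5169 and 4956 in mock, with overlap (-0.03). AT3G11630, for a 2-cysteine peroxiredoxin, had 4281 and 3668 in IAA, against 4197 and 4630.3 in mock, also with overlap (-0.15). AT5G24490, for a plastid ribosomal protein, had both IAA arrays lower (-0.18), and AT5G19940 had a change of -0.0036. All 4 changes lay below 0 and 0 were called in limma.

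**Figure D5:**
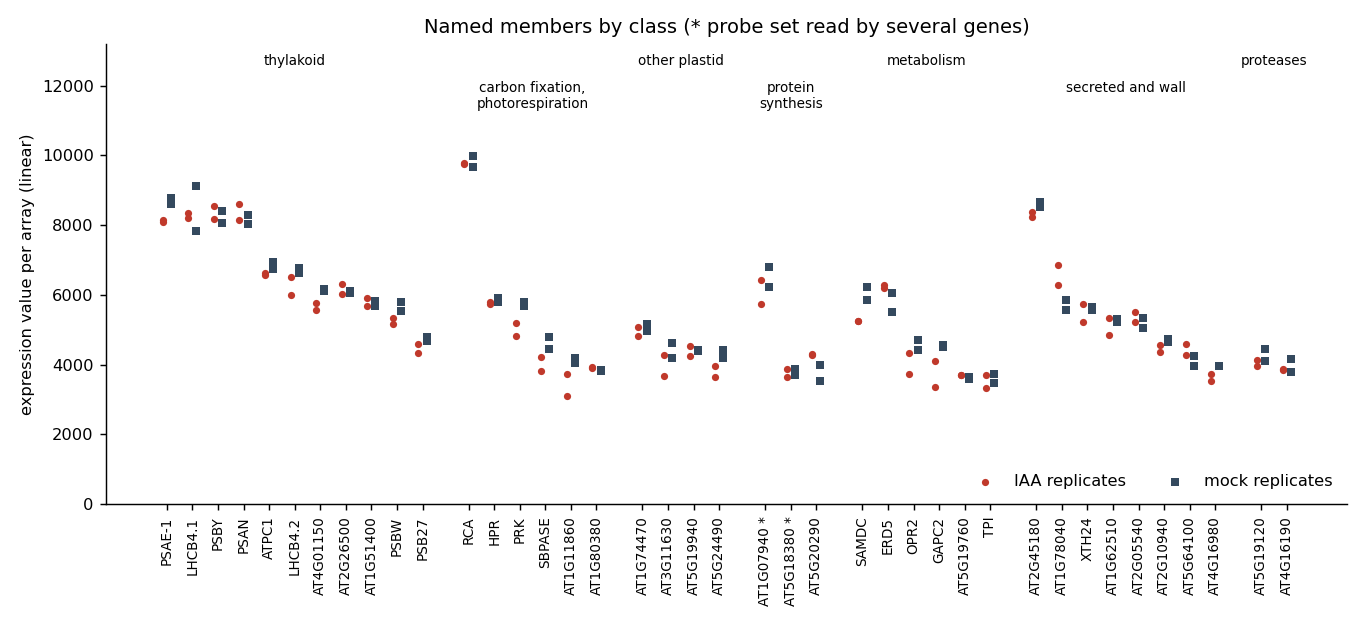
Expression value of the named members in 7 classes on each array, IAA replicates (red circles) left of mock replicates (dark squares), on a linear axis that starts at 0. Values are compared within a gene only, and the groups of *PRK*, *SBPASE*, *SAMDC* and *AT1G78040* stand apart while those of *RCA*, *PSAN* and *TPI* overlap.

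Few members for cytosolic protein synthesis could be named. The probe set for elongation factor 1A, which delivers aminoacyl-tRNA to the ribosome, is assigned to 4 genes (AT1G07920, AT1G07930, AT1G07940 and AT5G60390), so its signal cannot be divided between them. It had 6435 and 5735 in IAA, against 6220.3 and 6794 in mock, with overlap (-0.10). AT5G20290, for a ribosomal protein of the small subunit, had 4307 and 4261 in IAA, against 3529.6 and 3990.1 in mock. Both IAA values of AT5G20290 lay above both mock values, and its change of 0.19 ± 0.10 (SE) did not pass (limma adjusted p = 0.34). The probe set assigned to AT5G18380 and a similar ribosomal protein gene had a change of -0.0045. Of 18 translation factor genes 6 were measured, 1 of them among the 200, and 0 were called in limma.

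Metabolic enzymes and carriers gave 6 named members, with changes that ran from -0.29 to 0.12. *GAPC2*, for the cytosolic glyceraldehyde-3-phosphate dehydrogenase of glycolysis, had 4114 and 3363 in IAA, against 4502 and 4567 in mock. Both IAA values were lower but they differed from each other more than the mock values did, and the change of -0.29 (95% interval -0.59 to 0.02) did not pass the test (limma adjusted p = 0.259). It was the lowest of the named members over all arrays, but its size rests on IAA replicate 2: it was -0.14 without that array and -0.43 without IAA replicate 1, and without IAA replicate 2 AT5G14120 was lower, at -0.25. *TPI*, for the cytosolic triose phosphate isomerase, had 3695 and 3339.8 in IAA, against 3469 and 3739 in mock, with overlap (-0.04). *SAMDC*, for the decarboxylase that commits S-adenosylmethionine to polyamine synthesis, had 5254 and 5263 in IAA, against 6238 and 5855 in mock (-0.20, limma adjusted p = 0.276). *ERD5*, for the proline dehydrogenase that starts proline breakdown, had 6197 and 6295 in IAA, against 5495 and 6048 in mock (0.12). The IAA values of *SAMDC* lay below and those of *ERD5* above the mock values, without overlap in either.

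*OPR2*, for an oxophytodienoate reductase, had both IAA arrays lower (-0.18) on a probe set that is marked as shared. AT5G19760, for a mitochondrial carrier of dicarboxylates and tricarboxylates, had a change of 0.04. The 6 metabolic members had a median of -0.11. *GAPC2* and elongation factor 1A are also common reference genes for transcript measurements. Of 13 listed reference genes 5 were measured, 0 were called in limma, and their changes ran from -0.29 to 0.17.

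Secreted and wall proteins were represented by 8 named members. AT2G45180, of the lipid transfer protein superfamily, was the third brightest named member with 8367 and 8236 in IAA, against 8655 and 8519 in mock (-0.05). Both IAA values lay below both mock values. AT1G62510 and AT2G10940 of the same superfamily had changes of -0.05 and -0.08. AT1G78040, for a secreted protein of the Ole e 1 family, had 6278 and 6864 in IAA, against 5847 and 5571 in mock. Both IAA values were higher, and the change of 0.20 ± 0.10 (SE) was the highest of the named members and did not pass (limma adjusted p = 0.3).

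*XTH24* encodes an enzyme of the family that cuts and rejoins xyloglucan in the wall. It had 5221 and 5747 in IAA, against 5555 and 5653 in mock, with overlap (-0.03, 95% interval -0.27 to 0.20). AT5G64100, for a class III peroxidase, had 4272 and 4604 in IAA, against 3950.2 and 4235 in mock, and both IAA values were higher (0.12). AT2G05540, for a glycine-rich protein, had a change of 0.05, and AT4G16980, of the arabinogalactan protein family, one of -0.12. The class median was -0.04 and 0 of 8 were called in limma. Without IAA replicate 1 the class median was 0.03, so its sign rests on that array.

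The 2 named proteases overlapped between the groups, AT5G19120 of the aspartyl type (-0.08) and AT4G16190 of the papain type (-0.04). A further 14 named members fell outside these classes. *MYBL2*, for a repressor of anthocyanin synthesis, had 3737 and 3867 in IAA, against 3882 and 4069.7 in mock (-0.06). A probe set assigned to 3 genes for histone H3.3 (AT5G10980, AT4G40030 and AT4G40040) had 4898 and 4659 in IAA, against 4249 and 4268 in mock. The histone values were higher on both IAA arrays (0.17, limma adjusted p = 0.343), and those of *MYBL2* were lower on both. AT1G09310 had 5220.1 and 4564 in IAA, against 4066 and 4597 in mock, with overlap (0.18). AT5G02160 and AT5G14120, of which the second encodes a transporter of the major facilitator superfamily, had the lowest changes of the 14, at -0.22 and -0.21. Over the 14 the median was -0.083, with 9 below 0 and 0 called in limma.

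The 146 unnamed members held the largest changes in both directions. Their median was -0.080, 122 lay below 0 (53.3% of all tested), both IAA arrays lay below both mock arrays for 82 (29% of all tested) and above both for 9 (24.5% of all tested). The highest change belonged to the probe set 256964_at, which had 4885 and 5211 in IAA, against 3751 and 3537 in mock. Both IAA values lay above both mock values, and the log2 change was 0.47 (95% interval 0.24 to 0.70, limma adjusted p = 0.0686, B below 0). The lowest belonged to 247954_at, which had 3042 and 2961 in IAA, against 4256 and 4439 in mock (-0.53, 95% interval -0.75 to -0.32, limma adjusted p = 0.0452, B below 0). Next came 265444_s_at, with 3069 and 2854 in IAA, against 4123 and 4237 in mock (-0.50, limma adjusted p = 0.0593). In these 3 the distance between the groups was several times that between replicates. The 2 next lowest were 267517_at, with 2858 and 2844 in IAA, against 4073 and 3652 in mock (-0.44, limma adjusted p = 0.0897, B below 0), and 245399_at, with 3823 and 3141 in IAA, against 4431 and 4403 in mock (-0.35, limma adjusted p = 0.191). In both the IAA values lay below the mock values, and the change of 245399_at was -0.21 without IAA replicate 2. The probe sets 256964_at, 247954_at and 265444_s_at were called when the prior variance followed intensity, and 247954_at and 265444_s_at also with 64 added to each value.

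The order of the brightest transcripts was largely kept after IAA. Of the 200, 183 (91.5%) were also among the 200 highest by the mean of the IAA arrays, 186 on IAA replicate 1 alone and 180 on IAA replicate 2 alone. On each mock array alone 192 were, but those arrays had chosen the members. Spearman's rho between IAA and mock means over the 200 was 0.947, against 0.968 between IAA replicates and 0.968 between mock replicates. These are descriptions across probe sets, which share arrays and are not independent.

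The 17 that dropped out came from rank 133 or lower in mock and ended no lower than rank 282 after IAA. The named ones were AT1G11860 (rank 208 after IAA), AT1G13930 (rank 216) and AT5G14120 (rank 244). None of the 17 was called lower in limma. The 17 that entered did so because their IAA values were high, so their direction follows from that choice and is only described. Among them 4 were called higher in limma, a call made for 1.48% of all tested probe sets. *GH3.3*, described above, moved into rank 148 after IAA, against rank 15518 in mock. *AGP15*, for an arabinogalactan peptide of the cell surface, had 4186 and 4363 in IAA, against 2593 and 2518 in mock (0.74, limma adjusted p = 0.0182). *TCH4*, for an enzyme of the XTH family, had 3959 and 4388 in IAA, against 2638 and 2349.6 in mock (0.74, limma adjusted p = 0.033). *DGR2*, for a wall-associated protein, had 3558 and 3556 in IAA, against 1847 and 2034 in mock (0.88, limma adjusted p = 0.0136). *AGP15*, *TCH4* and *DGR2* had mock ranks of 345, 358 and 529. The entrants that were not called included *MIOX2*, for an enzyme that oxidizes myo-inositol (0.22), the peroxidase gene AT5G64120 (0.46) and AT3G16370 (0.26).

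Because the mock arrays chose the members, errors of those arrays entered both the choice and the change. The median change was therefore computed for other choices. It was -0.062 for the 200 highest by the IAA arrays, with 143 below 0, and -0.069 for the 200 highest by all 4 arrays, with 151 below 0. When mock replicate 1 chose the members and mock replicate 2 alone served as the comparison it was -0.075, and with the mock arrays exchanged it was -0.070. The median lay below 0 for each of these choices. Of the 51 members with a single named gene, 17 lay on chromosome 1, 7 on chromosome 2, 10 on chromosome 3, 6 on chromosome 4 and 11 on chromosome 5. In order of the chromosomes these are 33.3%, 13.7%, 19.6%, 11.8% and 21.6% of the members, against 25.5%, 16.2%, 20.2%, 14.6% and 22.3% of all tested probe sets with a single named gene.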

How the data were processed

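Affymetrix arrays of whole seedlings (2 IAA, 2 mock) were grouped by the sample descriptions and numbered by the titles. The study's methods name rma of the Bioconductor affy package (background correction, quantile normalization, probe-set summary), and the deposited intensity values were taken to be the authors' rma values. The version and the set of arrays normalized together are not given in the sources used here, and that the values are rma values on a linear scale was judged from the methods and from their range of 7.47 to 11463.1. Quantile normalization, if so applied, hides a shift shared by most transcripts.

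The deposited values were analysed as log2, without a pseudocount. Each of 22746 probe sets, without 64 controls, was fitted with limma 3.58.1 in R 4.3.3, treatment as the only term and 3.66 prior degrees of freedom. After Benjamini-Hochberg adjustment over all of them, a call required a p under 0.10 together with B over 0, as in the study's methods. Arrays are described as independent biological replicates, and 2 per group limit the precision. Names came from the platform's annotation with RefSeq names of assembly TAIR10.1, and for probe sets it does not list from the study's supplementary lists.

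The 200 members, the gene lists and the classes were chosen with earlier results of these data known. Named were the 12 brightest members (unnamed ones as a range), up to 3 per class or list by mock level, the 4 largest changes each way, and the limit. Further named members are examples chosen after their values were seen. Alternatives were a replicate block, an intensity trend, a pseudocount of 64, leaving out the 11373 dimmest probe sets, 2 centrings, other call rules, other choices of members and leaving out each array.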

Additional observations from a re-analysis of the deposited data

How the results depend on the processing

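The median log2 change of the 200 stayed below 0 under every alternative tried, between -0.090 and -0.055. Those ends are the range on leaving out 1 array, with -0.055 without IAA replicate 2 and -0.090 without IAA replicate 1. The replicate block, the intensity trend and leaving out the dimmest probe sets could not alter the median by their construction. The count of members called by limma was 0 higher and 0 lower with either centring and without the 11373 dimmest probe sets. Leaving out an array leaves 1 residual degree of freedom, with the lone array assumed to vary like the other group, and a stricter limit can only lower a count, so the 0 calls there carry no information. With an intensity trend in the prior variance it was 1 higher and 2 lower, with a pseudocount of 64 it was 0 higher and 3 lower, and without the rule on B it was 1 higher and 3 lower. Other choices of members gave 4 higher for the 200 highest by the IAA mean, and 2 higher and 1 lower for the 400 highest. The 200 highest named probe sets, which reach down to a mock mean of 1911, gave 4 higher and 2 lower. Of all tested, 1.48% were called higher and 0.374% lower. Probe sets outside the array's annotation were named only if the study had called them regulated, in part on these arrays. The choice by name thus favours called probe sets, and the choice by the IAA mean favours higher ones. The ratio of the median absolute change of the members to that of the other nuclear probe sets was 0.643. It was 1.46 with a pseudocount of 64, whose construction shrinks dim probe sets. It ran from 0.491 to 0.799 on leaving out 1 array.

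The replicate differences of the 2 groups correlated at -0.19 over all probe sets and at -0.40 over the members. A pairing by replicate number was thus not seen, but 1 difference per group cannot settle how the arrays were paired. With the replicate block the counts were 0 higher and 0 lower and the median was -0.075. The crossed pairing, added after the data were seen, called 0 higher and 0 lower. In this balanced layout neither block can alter the log2 changes, so the equal median was fixed in advance. Each block leaves 1 residual degree of freedom, so its 0 calls carry little information. The planned description of 6 promoter motifs was not run because no promoter sequences were used here. Ranking by the IAA mean gives no separate overlap with itself, and leaving out a mock array with the members kept does not alter the overlap. Of the class medians, that of the metabolic members moved most, with -0.02 without IAA replicate 2 and -0.11 over all arrays. With 2 arrays per group and 1 value per probe set, the results are limited to signal, and probe saturation could not be examined.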
